A study of Mus musculus with 9 samples.

Results

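RNA immunoprecipitation (RIP) with an antibody to CELF2 was compared with RIP with normal rabbit IgG in 6 of the 9 libraries of the study, 3 with each antibody (named CELF2-KI RIP and IgG RIP here), and the other 3 libraries were input RNA of the same fraction. The members were chosen by the antibody alone, and every gene with enough counts entered the comparison. All 9 libraries came from cortices of newborn (postnatal day 0) mice heterozygous for the CELF2 p.R493H variant, the CELF2 KI line. No wild-type pull-down was analysed here, so the comparison is between antibodies within 1 genotype. RNA came from the cytoplasmic fraction of whole cortical lysate, in which the labels list neurons, radial glia, astrocytes, oligodendrocyte precursors, microglia and endothelial cells. The labels call the libraries biological replicates and do not say how many animals each one holds. The question put to the pair is which RNAs the specific antibody brought down beyond what control beads held.

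CELF2 belongs to the CUGBP and ELAV-like family, RNA-binding proteins with RNA recognition motifs that prefer GU-rich stretches. In the nucleus they act on alternative splicing, and in the cytoplasm on the stability and translation of mRNA, mostly through 3′ untranslated regions. A RIP recovers whole RNAs that stay with the protein and its partners, and an IgG RIP recovers RNAs that stick to beads and antibody. The ratio of both is relative: a gene is high or low against the other RNAs of the same libraries.

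Estimated counts of RefSeq transcripts were summed per gene. The CELF2-KI RIP libraries held 16691385, 20052716 and 15919600 counts, the IgG RIP libraries 28773130, 17365561 and 17922343, and the 3 inputs between 69125700 and 105116427. Protein-coding genes took 84.7% ± 0.69 (SD, n = 3) of all counts in the CELF2-KI RIP and 59.98% ± 12.3 in the IgG RIP (exact two-sided permutation p = 0.1, the smallest that 3 against 3 libraries allow), and of counts matched to a gene other than ribosomal RNA 96.7% ± 0.487 and 92.7% ± 1.22. On average, most of the remainder in the IgG RIP was a single curated noncoding transcript that has no gene in the annotation table used. This transcript held 26.2% ± 13.4 of counts (SD, n = 3, from 10.8% to 34.9%) against 1.44% ± 0.542 in the CELF2-KI RIP and 0.65% ± 0.214 in the input. In IgG RIP replicate 3 it held 10.8%, beside 10.3% for other transcripts without a gene and 74.14% for coding genes. Levels below are therefore in CPM, counts relative to the coding total of the library, scaled by the trimmed mean of M values (TMM), which set the 3 CELF2-KI RIP factors between 0.771 and 0.878 and the IgG RIP factors between 1.05 and 1.08. CPM are not divided by transcript length, so they compare libraries for a gene and not genes with each other.

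The pull-downs differed in both directions across a wide range of genes. Of 15263 protein-coding genes tested, 2050 were higher in the CELF2-KI RIP (13.4%) and 2066 were lower (13.5%), by edgeR's quasi-likelihood test, with a false discovery rate (FDR) below 0.01 and a 2-fold change or more. The genes that were higher were well counted, with a median of 100 CPM in the CELF2-KI RIP, 37.9 in the IgG RIP and 47.7 in the input, and together they held 38.1% of coding CPM in the CELF2-KI RIP and 18.2% in the IgG RIP. The genes that were lower had medians of 6.13, 18.4 and 19 CPM, and held 3.67% and 14.5%. Among those called, the median log2 fold change was 1.36 upward and -1.55 downward. Changes of at least 4-fold were more often losses, 481 against 179 gains. Each of the 3 CELF2-KI RIP libraries exceeded each of the 3 IgG RIP libraries in 4580 genes (30.0%) and was below each in 4184 (27.4%), so separation without the size and FDR limits is common here. The split between gains and losses depended on the scaling: with total-count scaling 937 genes were higher and 3421 lower, 21.5% of calls upward against 49.8% with TMM on coding genes, with upper-quartile scaling 28.7% and with TMM over all gene classes 32.4%, and the median of all genes moved by -0.369, -0.264 and -0.217 on the log2 scale. A gain in what follows is a gain against the middle of the coding genes, whose median was -0.06, and family counts are read against the shares of all coding genes, 13.4% higher and 13.5% lower. Families were not matched for level. Between the lowest and highest of 5 groups by mean CPM, the share called higher went from 1.64% to 30.6%. The share called lower was 10.2% and 5.8% in these groups.

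**Figure D1:**
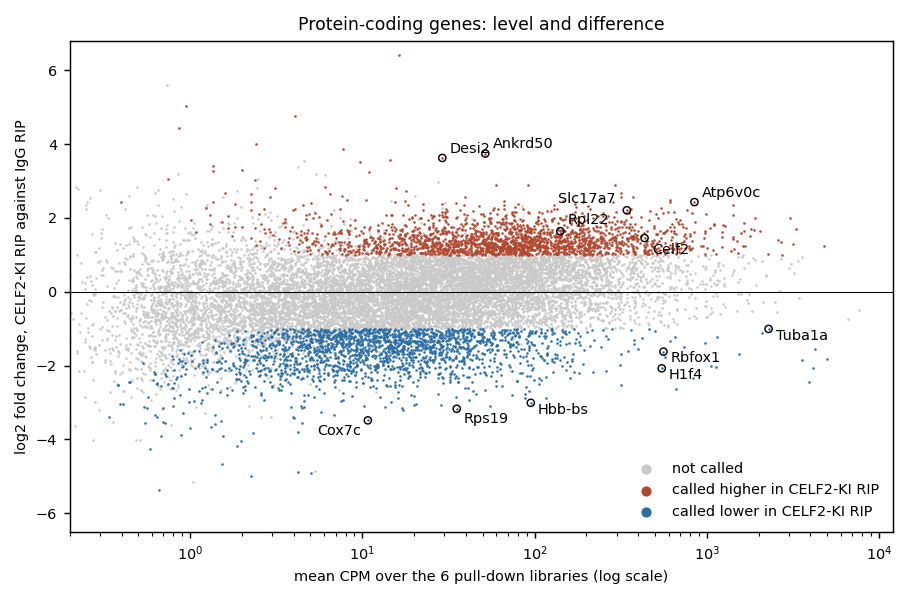
Each point is a protein-coding gene, with its mean CPM over the 6 pull-down libraries on a log axis and its log2 fold change between the pull-downs (CELF2-KI RIP over IgG RIP) on the other; 64 genes lie outside the axes. Genes called higher (2050, red) lie towards high levels, and genes called lower (2066, blue) spread to lower levels, with Tuba1a, H1f4 and Rbfox1 as losses of high level.

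*Celf2* mRNA itself was among the gains. The gene (chr2:6539694-7396341, GRCm38) had 470.0, 797 and 647 CPM against 267, 231 and 199.9 in the IgG RIP, and 304, 278 and 305 CPM in the input. The pull-downs did not overlap, with a log2 fold change of 1.46 ± 0.18 (SE, FDR = 9.69e-05).

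The 12 largest gains among well-counted genes, at least 10 CPM on average, were of varied function. *Ankrd50*, which encodes an ankyrin-repeat protein of endosome recycling (chr3:38449259-38484862), had 30.5, 132 and 126 CPM in the CELF2-KI RIP and 8.82, 7.63 and 5.09 in the IgG RIP, a log2 fold change of 3.74 ± 0.49 (SE, FDR = 0.000129). When RefSeq's curated transcripts alone were summed, without the predicted ones, the log2 fold change of *Ankrd50* was 0.92 (edgeR, FDR = 0.0697), under 2-fold and not called. *Desi2*, a deSUMOylating isopeptidase, had 52.1, 68.0 and 41.6 CPM against 2.44, 3.57 and 7.10 in the IgG RIP, a log2 fold change of 3.62 ± 0.35 (SE, FDR = 2.26e-05). For *Tbcel*, a tubulin cofactor-like gene, the values were 29.2, 33.6 and 16.9 CPM in the CELF2-KI RIP and 2.82, 3.47 and 0.502 in the IgG RIP, a log2 fold change of 3.58 ± 0.50 (SE, FDR = 0.000179). In these 3 genes every CELF2-KI RIP library stood above every IgG RIP library, and for *Ankrd50* and *Desi2* above the input libraries as well.

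Among the other gains *Tmem35a*, a chaperone of nicotinic acetylcholine receptors, had 395, 773 and 393 CPM against 56.9, 60.4 and 93.1 in the IgG RIP, a log2 fold change of 2.89 ± 0.29 (SE, FDR = 2.54e-05). *Pip4p1*, a phosphoinositide phosphatase of late endosomes, had 85.7, 134 and 96.1 CPM in the CELF2-KI RIP and 15.5, 17.1 and 10.5 in the IgG RIP, a log2 fold change of 2.88 ± 0.22 (SE, FDR = 8.83e-06). *Get1*, the receptor that inserts tail-anchored proteins into the endoplasmic reticulum, had 497, 695 and 443 CPM against 74.98, 85.1 and 115 in the IgG RIP, a log2 fold change of 2.57 ± 0.21 (SE, FDR = 1.11e-05). The groups were far apart in all 3. *Blcap*, a small membrane protein gene known for A-to-I editing of its transcript, had 441, 739 and 462 CPM in the CELF2-KI RIP and 79.6, 88.9 and 88.3 in the IgG RIP, a log2 fold change of 2.68 ± 0.19 (SE, FDR = 7.76e-06), and *Hilpda*, a lipid droplet protein gene, had 30.0, 39.6 and 23.2 CPM against 2.69, 4.46 and 7.03 in the IgG RIP, a log2 fold change of 2.71 ± 0.32 (SE, FDR = 6.76e-05).

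The remaining 4 had IgG RIP libraries that differed widely, in part with very few counts. *Kdm6b*, a histone H3K27 demethylase, had 16, 47.4 and 33.6 CPM in the CELF2-KI RIP and 0, 0 and 1.08 in the IgG RIP, and its FDR of 0.00628 with all libraries was over the limit whichever of the 6 was left out, up to 0.0263. *Chuk*, the IKK-alpha kinase, had 22.97, 18.3 and 17.4 CPM against 1.88, 4.66 and 0 in the IgG RIP. *Slc39a10*, a zinc importer, had 149, 172 and 166 CPM in the CELF2-KI RIP and 49.3, 11.5 and 3.58 in the IgG RIP, and *B4galt1*, a galactosyltransferase, had 18.0, 39.0 and 25.4 CPM against 5.88, 5.75 and 0.143 in the IgG RIP. The IgG RIP libraries of these genes spread more, relative to their level, than their CELF2-KI RIP libraries, and the log2 fold changes of *Chuk*, *Slc39a10* and *B4galt1* ran from 2.64 to 4.33, 2.39 to 4.47 and 2.24 to 3.31 as single libraries were left out. The FDR reached 0.0148, 0.0317 and 0.0271 in those fits. The call of *Chuk* was lost without IgG RIP replicate 1 or any 1 of the 3 CELF2-KI RIP libraries, that of *Slc39a10* without IgG RIP replicate 2 or any 1 CELF2-KI RIP library, and that of *B4galt1* without IgG RIP replicate 2 or CELF2-KI RIP replicate 2 or 3.

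The 12 largest losses were mostly of a few kinds: 4 histone H4 genes, 2 genes of small ribosomal subunit proteins, 3 of respiratory chain subunits and a globin. *Cox7c*, a cytochrome c oxidase subunit (chr13:86044798-86046795), had 1.60, 2.46 and 1.16 CPM in the CELF2-KI RIP and 17.0, 23.7 and 18.7 in the IgG RIP and 56.3, 60.6 and 56.9 CPM in the input, a log2 fold change of -3.49 ± 0.25 (SE, FDR = 7.76e-06). *Uqcrq*, a subunit of complex III, had 2.72, 2.62 and 3.04 CPM against 21.1, 23.8 and 27.8 in the IgG RIP, a log2 fold change of -3.12 ± 0.16 (SE, FDR = 3.9e-06), and *Ndufb9*, of complex I, had 3.68, 3.54 and 2.59 CPM in the CELF2-KI RIP and 23.2, 27.2 and 27.5 in the IgG RIP, a log2 fold change of -2.98 ± 0.17 (SE, FDR = 5.14e-06). *Rps19*, a ribosomal protein gene (chr7:24884592-24889811), had 8.402, 5.62 and 7.14 CPM against 54.8, 68.0 and 68.0 in the IgG RIP and 199, 195 and 197 CPM in the input, a log2 fold change of -3.17 ± 0.16 (SE, FDR = 3.9e-06). *Rps13* had 5.76, 4.24 and 3.21 CPM in the CELF2-KI RIP and 30.7, 33.7 and 45.7 in the IgG RIP, a log2 fold change of -3.05 ± 0.24 (SE, FDR = 9.98e-06). These mRNAs were lowest in the CELF2-KI RIP, intermediate in the IgG RIP and highest in the input, with no overlap between any of the 3 groups.

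Outside these families the losses were *Nucb2*, the nesfatin precursor gene, with 1.68, 2.39 and 2.32 CPM against 13.0, 17.4 and 24.8 in the IgG RIP, and *Pitrm1*, a mitochondrial presequence protease gene, with 2.64, 2.39 and 5.18 CPM in the CELF2-KI RIP and 44.9, 12.6 and 35.5 in the IgG RIP. *Pitrm1* differed from the other losses in its input level, 6.995, 9.43 and 3.32 CPM, which was below every IgG RIP library and near the CELF2-KI RIP. *Pitrm1* had a log2 fold change of -3.20 ± 0.55 (SE, FDR = 0.000671), and *Nucb2* had a log2 fold change of -3.11 ± 0.27 (SE, FDR = 1.3e-05). *Pitrm1* stayed below its IgG RIP libraries without any 1 library, from -3.63 to -2.84.

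**Figure D2:**
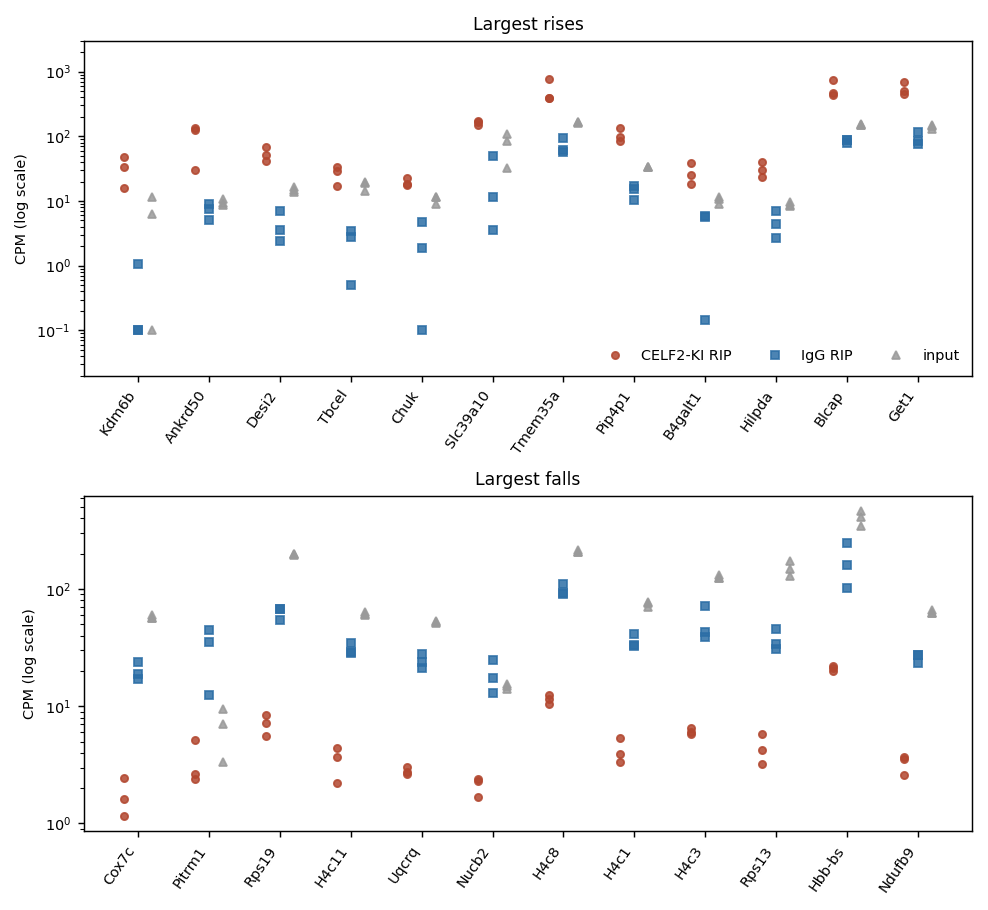
CPM on a log axis in each library of the 12 genes with the largest gain (upper panel) and the 12 with the largest loss (lower panel), with 3 points each for each pull-down and the input; values under 0.1 are drawn at 0.1. Inputs of the losses other than Pitrm1 and Nucb2 lie above both pull-downs, and inputs of the gains lie between the pull-downs for most genes.

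Genes of the ribosome were lost nearly as a body. Of 83 tested genes of cytoplasmic ribosomal proteins, 73 were lower, 88.0% against 13.5% of all coding genes, and 2 were higher. Their median log2 fold change was -2.16, and between -2.53 and -2.01 over the alternative settings. Summed over the list, levels were 2442, 2242 and 1938 CPM in the CELF2-KI RIP, 6100, 6896 and 8540 in the IgG RIP and 16220 to 17800 in the input. *Rps2* had 61.9, 67.0 and 56.6 CPM against 260.1, 302 and 276 in the IgG RIP, a log2 fold change of -2.18 ± 0.11 (SE, FDR = 3.9e-06), and *Rpl4* had 95.3, 71.2 and 67.9 CPM in the CELF2-KI RIP and 239.6, 273 and 404 in the IgG RIP, a log2 fold change of -1.97 ± 0.20 (SE, FDR = 2.89e-05). The 2 exceptions were *Rpl22*, which had 212, 219 and 211 CPM against 61.3, 68.8 and 75.7 in the IgG RIP, a log2 fold change of 1.64 ± 0.12 (SE, FDR = 8.13e-06), and *Rpl15*, which had 104, 124 and 90.0 CPM in the CELF2-KI RIP and 31.5, 40.6 and 57.6 in the IgG RIP, a log2 fold change of 1.29 ± 0.22 (SE, FDR = 0.000646). *Rpl22* was apart from its family in every alternative setting, and *Rpl15* lost its call in 2 of 17. Many ribosomal protein genes have processed copies elsewhere in the genome, and how reads shared with such copies were divided is not known for single genes.

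Other parts of the translation machinery were lower by smaller margins. Mitochondrial ribosomal protein genes were lower in 31 of 78 (median -0.93) and higher in 1, *Mrpl10*, with 31.9, 32.0 and 32.9 CPM against 10.8, 11.1 and 13.3 in the IgG RIP. Initiation and elongation factor genes were lower in 21 of 67 (median -0.67), which included *Eif3c*, a scaffold subunit of eIF3, with 109.7, 82.7 and 97.1 CPM in the CELF2-KI RIP and 246, 262 and 360.1 in the IgG RIP, a log2 fold change of -1.58 ± 0.16 (SE, FDR = 2.9e-05). Among the 5 that were higher, *Eif4ebp2*, which encodes the translation repressor 4E-BP2, had 397, 611 and 516 CPM against 156, 152 and 188 in the IgG RIP, a log2 fold change of 1.62 ± 0.17 (SE, FDR = 2.81e-05), *Eif4h*, the gene of a helicase cofactor in initiation, had 464, 465 and 463 CPM in the CELF2-KI RIP and 176, 193 and 209.9 in the IgG RIP, a log2 fold change of 1.26 ± 0.10 (SE, FDR = 9.01e-06), and *Eif4e*, the gene of the cap-binding protein, *Eif5a2* and *Eif1b*, named after their values were seen, had log2 fold changes of 1.08, 2.35 and 1.77. *Eif5a2* moved opposite to its paralog *Eif5a*, at -1.04.

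Histone genes fell with the ribosomal ones. Replication-dependent histone mRNAs are short, lack introns and end in a stem-loop in place of a poly(A) tail. Of 71 histone genes tested, 58 were lower (81.7%) and 5 were higher, with a median of -1.74 (between -2.11 and -1.47 over the alternatives). *H4c8* (chr13:23531044-23531478) had 12.6, 11.6 and 10.4 CPM against 111, 91.1 and 93.1 in the IgG RIP, a log2 fold change of -3.09 ± 0.13 (SE, FDR = 3.9e-06). The linker histone gene *H1f4* had 231, 226 and 174 CPM in the CELF2-KI RIP and 604, 655 and 1399 in the IgG RIP, a log2 fold change of -2.08 ± 0.29 (SE, FDR = 0.000199), and *H1f2* had 109, 90.4 and 85.8 CPM against 319, 367 and 584 in the IgG RIP, a log2 fold change of -2.15 ± 0.21 (SE, FDR = 2.31e-05). *H1f4* was above its input level in the IgG RIP, where the input had 459.7, 408 and 511 CPM, and so differed from *H4c8*, whose input had 207, 206 and 214 CPM. The H4 genes encode the same protein with nearly the same sequence, so the division of reads among them is uncertain.

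Of the histone genes that were higher, *H3f3b* and *H2az2* encode replacement variants, whose mRNAs are polyadenylated. *H4c17*, *H3c10* and *H4c9* are not replacement variants. *H3f3b*, the H3.3B gene, had 533, 521 and 465 CPM in the CELF2-KI RIP and 223, 223 and 262 in the IgG RIP, a log2 fold change of 1.10 ± 0.11 (SE, FDR = 2.17e-05), and *H2az2*, the gene of an H2A.Z variant, had a log2 fold change of 1.27. *H4c17* had 155, 117 and 102 CPM against 42.9, 39.5 and 56.9 in the IgG RIP, a log2 fold change of 1.42 ± 0.20 (SE, FDR = 0.00021). *H3c10* and *H4c9*, at 2.39 and 1.44, completed the 5, and like *H2az2* were named after their values were seen. *H3f3b* was at -0.01 when curated transcripts alone were summed, so its gain lies in predicted transcripts.

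Genes of mitochondrial energy metabolism had the next lowest median among lists of at least 15 tested genes. Of 92 nuclear genes of oxidative phosphorylation subunits, 58 were lower (63.0%, median -1.55, from -1.92 to -1.44 over the alternatives) and 3 were higher. *Cox4i1*, a complex IV subunit, had 38.3, 28.6 and 29.9 CPM in the CELF2-KI RIP and 130.3, 156 and 183 in the IgG RIP, a log2 fold change of -2.28 ± 0.16 (SE, FDR = 7.76e-06), and *Uqcrc1*, a complex III core protein, had 50.2, 40.9 and 39.2 CPM against 126, 133 and 154 in the IgG RIP, a log2 fold change of -1.67 ± 0.13 (SE, FDR = 9.01e-06). Against them *Uqcrfs1*, the Rieske iron-sulfur protein gene, had 83.4, 83.7 and 71.0 CPM in the CELF2-KI RIP and 29.8, 33.1 and 39.2 in the IgG RIP, a log2 fold change of 1.22 ± 0.14 (SE, FDR = 4.35e-05), and *Atp5g3*, of the ATP synthase c-ring, had 134, 96.4 and 79.4 CPM against 39.3, 41.3 and 67.9 in the IgG RIP. *Atp5g3* lost its call without CELF2-KI RIP replicate 1, IgG RIP replicate 1 or IgG RIP replicate 2, with an FDR of up to 0.0164. The third, *Sdhc*, was named after its value was seen, 1.35. Transcripts of the mitochondrial genome were not analysed here.

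Cytosolic energy, folding and protein turnover genes showed losses with named exceptions. Of 38 genes of glycolysis and the citric acid cycle 13 were lower and 2 higher (median -0.61). *Gapdh* had 120.4, 109 and 104 CPM in the CELF2-KI RIP and 266, 321 and 344 in the IgG RIP, a log2 fold change of -1.48 ± 0.12 (SE, FDR = 1.15e-05), whereas *Ldha* had 408, 453 and 375 CPM against 123.2, 148 and 177 in the IgG RIP, a log2 fold change of 1.46 ± 0.14 (SE, FDR = 1.91e-05), and *Pgam1* had 290.0, 289.7 and 269 CPM in the CELF2-KI RIP and 83.0, 100.1 and 146 in the IgG RIP, a log2 fold change of 1.37 ± 0.18 (SE, FDR = 0.000121). All 3 encode cytosolic enzymes of the same pathway and did not overlap between pull-downs in either direction. Of 48 proteasome genes 18 were lower and 2 higher (median -0.73). *Psmc3*, a base ATPase, had 33.5, 24.0 and 27.4 CPM against 97.1, 101 and 151 in the IgG RIP, a log2 fold change of -2.04 ± 0.19 (SE, FDR = 1.89e-05), and *Psme3*, the gene of the nuclear activator REG gamma, had 72.5, 115 and 108 CPM in the CELF2-KI RIP and 46.1, 46.7 and 34.2 in the IgG RIP, a log2 fold change of 1.22 ± 0.19 (SE, FDR = 0.00035). Of 80 chaperone genes 19 were lower (23.8%) and 10 higher, the latter 12.5% against 13.4% of all coding genes. *Hspa8*, the constitutive HSC70, had 697, 485 and 443 CPM against 1177, 1284 and 1787 in the IgG RIP, a log2 fold change of -1.39 ± 0.20 (SE, FDR = 0.000201). *Dnajc5*, which encodes its synaptic vesicle cochaperone CSP-alpha, had 646, 1009 and 821 CPM in the CELF2-KI RIP and 191, 199 and 188 in the IgG RIP, a log2 fold change of 2.10 ± 0.15 (SE, FDR = 7.92e-06).

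Genes of membrane transport formed the gain with the most members. Of 272 solute carrier genes other than the mitochondrial Slc25 family, 87 were higher (32.0% against 13.4% of all coding genes) and 8 were lower (2.94%), with a median of 0.55 that stayed above 0 under every alternative, from 0.17 to 0.64. Their summed level was 26890, 31890 and 26980 CPM in the CELF2-KI RIP and 12810, 13120 and 13540 in the IgG RIP. *Slc8a1*, a sodium-calcium exchanger, had 1829, 2713 and 1994 CPM against 895, 816 and 795 in the IgG RIP, a log2 fold change of 1.38 ± 0.15 (SE, FDR = 3.94e-05). *Slc1a2*, the glial glutamate transporter GLT-1, had 1317, 1786 and 1311 CPM in the CELF2-KI RIP and 531, 455 and 428 in the IgG RIP, a log2 fold change of 1.64 ± 0.17 (SE, FDR = 3.57e-05). *Slc17a7*, the vesicular glutamate transporter VGLUT1 (chr7:45163921-45176139), had 519, 627 and 549 CPM against 120.4, 116 and 131 in the IgG RIP, a log2 fold change of 2.21 ± 0.12 (SE, FDR = 3.9e-06). Among those that were lower, *Slc3a2*, the heavy chain of amino acid exchangers, had 115, 94.3 and 95.9 CPM in the CELF2-KI RIP and 169, 217 and 265 in the IgG RIP, and its call was lost without IgG RIP replicate 3, at a log2 fold change of -0.92. *Slc9a5*, a neuronal proton exchanger, had 22.8, 21.6 and 26.0 CPM against 61.8, 57.2 and 42.5 in the IgG RIP, a log2 fold change of -1.20 ± 0.16 (SE, FDR = 0.000133).

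Mitochondrial carriers were mixed, 8 of 41 higher and 3 lower. *Slc25a51*, the mitochondrial NAD transporter, had 221, 361 and 256 CPM in the CELF2-KI RIP and 59.8, 78.9 and 50.3 in the IgG RIP, a log2 fold change of 2.15 ± 0.21 (SE, FDR = 2.31e-05), and *Slc25a5*, an ADP/ATP translocase, had 17.6, 11.9 and 10.4 CPM against 54.6, 63.1 and 72.3 in the IgG RIP, a log2 fold change of -2.25 ± 0.20 (SE, FDR = 1.38e-05). The pair, picked from the calls in each direction, shows that both gain and loss occur within this carrier family. In the import machinery of the mitochondrion, *Tomm20*, an outer membrane receptor, had 416, 656 and 426 CPM in the CELF2-KI RIP and 123.2, 136 and 141 in the IgG RIP, a log2 fold change of 1.91 ± 0.18 (SE, FDR = 1.75e-05), and *Timm29* had 226, 348 and 262 CPM against 74.3, 67.8 and 66.5 in the IgG RIP, a log2 fold change of 2.003 ± 0.15 (SE, FDR = 9.01e-06), while 7 of the 24 tested genes were lower, among them *Tomm40*, the pore, with 17.4, 13.8 and 18.9 CPM in the CELF2-KI RIP and 43.4, 39.95 and 33.8 in the IgG RIP, a log2 fold change of -1.23 ± 0.15 (SE, FDR = 9.12e-05).

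Genes of vesicle traffic and release gained with the transporters. Of 18 synaptotagmin genes, calcium sensors of vesicle fusion and their relatives, 8 were higher and 0 lower (44.4%, median 0.80), and 13 of 18 lay above 0. *Syt11* had 914, 1154 and 984 CPM against 409.5, 394 and 422 in the IgG RIP, a log2 fold change of 1.32 ± 0.11 (SE, FDR = 1.26e-05). *Syt1*, the sensor of fast release, had 699, 936 and 702 CPM in the CELF2-KI RIP and 353, 363 and 358 in the IgG RIP, a log2 fold change of 1.12 ± 0.13 (SE, FDR = 4.93e-05), and without CELF2-KI RIP replicate 2 its change of 0.97 was just under 2-fold. With curated transcripts alone the log2 fold change of *Syt1* was 0.03 (edgeR, FDR = 0.898), so the gain was absent from the curated sum, and it was also under 2-fold with total-count scaling (0.74). Of 33 SNARE genes 12 were higher and 3 lower (median 0.72). *Vamp2*, the synaptic vesicle SNARE, had 454, 742 and 556 CPM against 119, 131 and 179.8 in the IgG RIP, a log2 fold change of 2.03 ± 0.22 (SE, FDR = 3.65e-05). *Stx5a*, a Golgi SNARE, went the other way with 17.3, 16.2 and 17.6 CPM in the CELF2-KI RIP and 40.6, 39.4 and 46.3 in the IgG RIP, a log2 fold change of -1.31 ± 0.13 (SE, FDR = 2.51e-05).

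Rab GTPases, the regulators of vesicle identity, were higher in 20 of 55 and lower in 5 (36.4% and 9.09%, median 0.59). *Rab11b*, of recycling endosomes, had 320.2, 409 and 363 CPM against 124, 137 and 141 in the IgG RIP, a log2 fold change of 1.44 ± 0.12 (SE, FDR = 1.11e-05), and *Rab6b*, of the Golgi in neurons, had 540.1, 625 and 659.5 CPM in the CELF2-KI RIP and 247, 265 and 253 in the IgG RIP, a log2 fold change of 1.25 ± 0.10 (SE, FDR = 1.15e-05). *Rab4a*, of early endosomes, had 7.52, 6.86 and 6.70 CPM against 13.96, 14.7 and 15.1 in the IgG RIP, a log2 fold change of -1.05 ± 0.13 (SE, FDR = 0.0001), a loss. Tetraspanins, 4-pass membrane organizers, were higher in 8 of 18 and lower in 0 (median 1.03, the highest of the families with at least 15 genes tested). *Tspan7* had 780.1, 809 and 615 CPM in the CELF2-KI RIP and 179.9, 191 and 207 in the IgG RIP, a log2 fold change of 1.93 ± 0.13 (SE, FDR = 6.22e-06), and *Tspan5* had 574, 773 and 573 CPM against 177, 193 and 204 in the IgG RIP, a log2 fold change of 1.74 ± 0.13 (SE, FDR = 9.01e-06). For the vacuolar ATPase, which acidifies vesicles, 6 of 22 genes were higher and 3 lower, and the median of 0.26 turned to -0.10 with total-count scaling. *Atp6v0c*, the membrane ring subunit (chr17:24163865-24169678), had 1221, 1860.0 and 1213 CPM in the CELF2-KI RIP and 214, 249 and 335 in the IgG RIP and 708, 722 and 683 CPM in the input, a log2 fold change of 2.43 ± 0.21 (SE, FDR = 1.27e-05). *Atp6v1f*, of the cytosolic part, had 7.36, 6.08 and 5.80 CPM against 13.2, 14.97 and 11.9 in the IgG RIP, a log2 fold change of -1.05 ± 0.15 (SE, FDR = 0.000258), and its call was lost without CELF2-KI RIP replicate 3 or IgG RIP replicate 2.

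**Figure D3:**
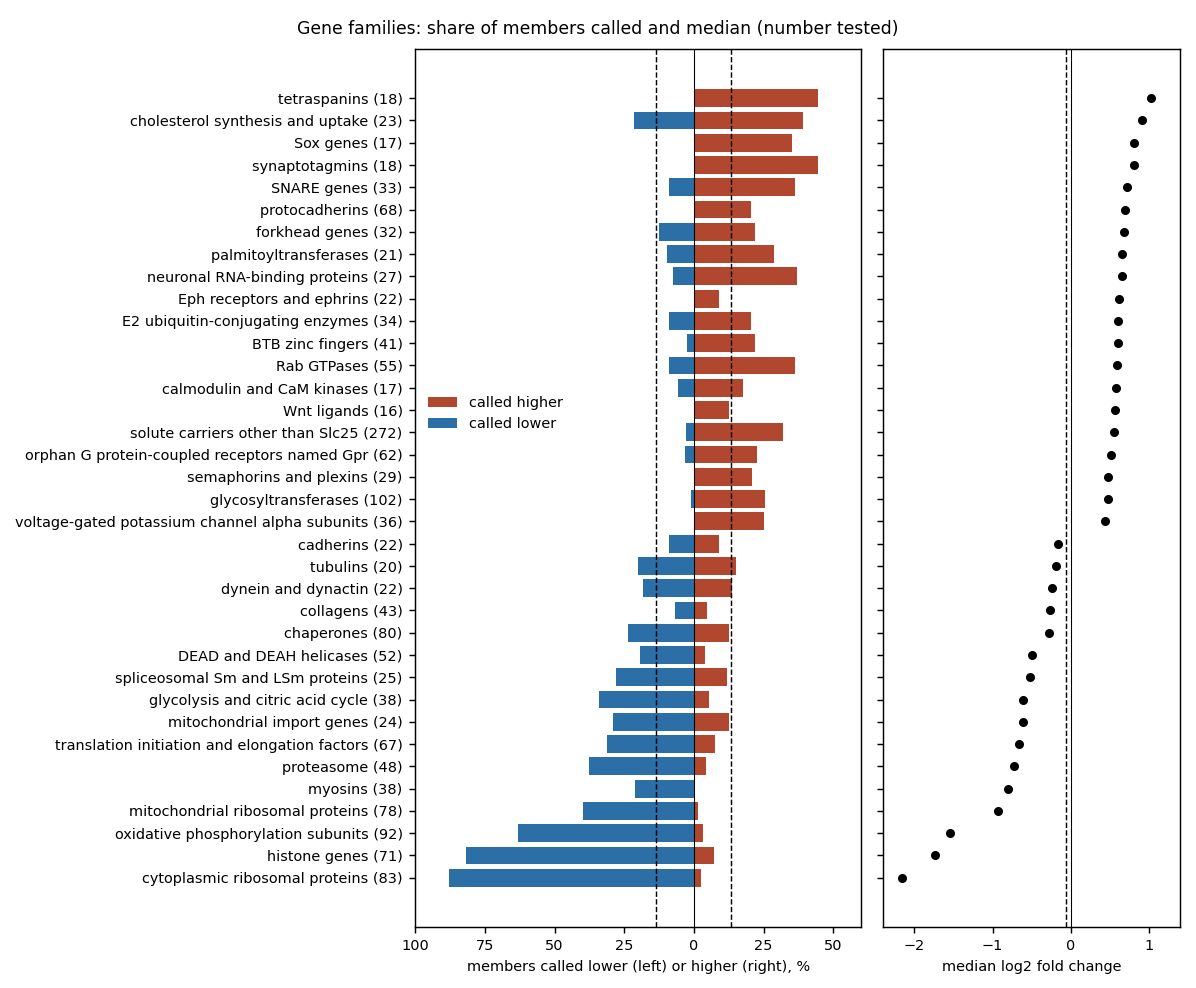
Bars give the percent of tested members called lower (blue, to the left) and higher (red, to the right) in the CELF2-KI RIP for 36 gene families with at least 15 tested genes, the 20 with the highest and the 16 with the lowest median log2 fold change, with the number tested in brackets; points give the median, and dashed lines the values of all coding genes. Ribosomal protein, histone and oxidative phosphorylation genes have 88.0%, 81.7% and 63.0% of members lower, and tetraspanins and synaptotagmins 44.4% higher. The families shown with a positive median kept it under total-count scaling.

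Receptor and channel genes were divided by family. Voltage-gated potassium channel alpha subunits were higher in 9 of 36 and lower in 0 (25%, median 0.44, still 0.07 with total-count scaling). *Kcnc1*, the Kv3.1 gene, had 387, 622 and 504 CPM in the CELF2-KI RIP and 190.3, 182 and 209.9 in the IgG RIP, a log2 fold change of 1.38 ± 0.16 (SE, FDR = 6.29e-05). Of the other potassium channel genes 7 of 48 were higher and 6 lower, 14.6% and 12.5%, near the 13.4% and 13.5% of all coding genes. *Kcnk10*, a 2-pore channel gene, had 261, 431 and 278 CPM against 118, 130.4 and 100.2 in the IgG RIP, a log2 fold change of 1.47 ± 0.19 (SE, FDR = 0.000106), and *Kcnt1*, the sodium-activated channel, had 15.04, 9.32 and 11.3 CPM in the CELF2-KI RIP and 59.2, 53.0 and 36.6 in the IgG RIP with 29.9, 27.4 and 24.1 CPM in the input, a log2 fold change of -2.06 ± 0.23 (SE, FDR = 4.39e-05). The groups were apart for both, and for *Kcnt1* the input lay between them, with every CELF2-KI RIP library under every IgG RIP library. With curated transcripts alone *Kcnt1* was at -0.95 and was not called (edgeR, FDR = 0.712).

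Sodium and calcium channel genes gave short lists. Of 14 sodium channel genes 3 were higher and 1 lower. *Scn3b*, a beta subunit, had 478, 400.2 and 407 CPM against 157, 172 and 204 in the IgG RIP, a log2 fold change of 1.27 ± 0.12 (SE, FDR = 2.17e-05). Of 24 calcium channel genes 3 were higher, 12.5% against 13.4% of all coding genes, and 1 was lower. *Cacnb3*, a beta subunit, had 50.7, 43.7 and 52.5 CPM in the CELF2-KI RIP and 163, 144 and 102 in the IgG RIP, a log2 fold change of -1.48 ± 0.17 (SE, FDR = 6.38e-05), and *Cacng8*, an AMPA receptor auxiliary subunit, had 84.3, 83.7 and 91.5 CPM against 42.7, 41.3 and 34.0 in the IgG RIP, a log2 fold change of 1.14 ± 0.12 (SE, FDR = 3.11e-05).

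Transmitter receptors were tested in 3 lists. Of 16 GABA receptor genes 5 were higher and 1 was lower. *Gabbr1*, a subunit of the metabotropic GABA-B receptor, had 1731, 2458 and 1720.0 CPM in the CELF2-KI RIP and 568, 591 and 572 in the IgG RIP, a log2 fold change of 1.77 ± 0.14 (SE, FDR = 1.12e-05), and *Gabrd*, an extrasynaptic GABA-A subunit, had 1.36, 1.16 and 1.16 CPM against 5.07, 6.34 and 5.52 in the IgG RIP, a log2 fold change of -2.20 ± 0.21 (SE, FDR = 2.29e-05). Of 18 ionotropic glutamate receptor genes 2 were higher and 0 lower, a share of 11.1% that is close to that of all coding genes, and the list's median of 0.35 turned to -0.02 with total-count scaling. *Grik3*, a kainate receptor gene, had 746, 1084 and 1037 CPM in the CELF2-KI RIP and 466, 433 and 377 in the IgG RIP, a log2 fold change of 1.17 ± 0.15 (SE, FDR = 0.000107). *Grin2b*, the NMDA receptor GluN2B gene, had 1605, 2543 and 1957 CPM against 1113, 969 and 892 in the IgG RIP, and its log2 fold change of 1.04 was under 2-fold without CELF2-KI RIP replicate 2 (0.85) or IgG RIP replicate 3 (0.97). Of 8 metabotropic glutamate receptor genes *Grm2* was higher and *Grm8* was lower. *Grm2* had 193, 283 and 246 CPM in the CELF2-KI RIP and 58.9, 65.9 and 58.9 in the IgG RIP, a log2 fold change of 1.98 ± 0.15 (SE, FDR = 8.54e-06). With curated transcripts alone *Grm8* was at 8.94 and was not called (edgeR, FDR = 0.0279).

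Genes of cell contact and guidance differed by family. Frizzled receptors, which bind Wnt proteins, were higher in 5 of 10 and lower in 0 (median 1.01), with every one of the 10 above 0. *Fzd3* had 842, 1412 and 910.5 CPM against 268, 258 and 279 in the IgG RIP, a log2 fold change of 1.97 ± 0.19 (SE, FDR = 1.92e-05), and *Fzd1* had 116, 138 and 129 CPM in the CELF2-KI RIP and 42.6, 44.4 and 55.6 in the IgG RIP, a log2 fold change of 1.43 ± 0.13 (SE, FDR = 1.57e-05). Their ligands were higher in 2 of 16, 12.5% beside 13.4% of all coding genes. Protocadherins were higher in 14 of 68 and lower in 0 (20.6%, median 0.70), and semaphorins and plexins in 6 of 29 and 0 (20.7%). Eph receptors and ephrins were higher in 2 of 22 and lower in 0, 9.09% beside 13.4% of all coding genes. Cadherins were higher in 2 of 22 and lower in 2, 9.09% each, with a median of -0.165. *Pcdhgc3*, a clustered protocadherin whose transcripts share exons with its neighbours, had 899.6, 995 and 907 CPM against 356, 414 and 469 in the IgG RIP, a log2 fold change of 1.18 ± 0.12 (SE, FDR = 2.54e-05). *Sema6b* had 577, 552 and 507 CPM in the CELF2-KI RIP and 245, 261 and 219 in the IgG RIP, a log2 fold change of 1.18 ± 0.10 (SE, FDR = 1.39e-05). Of 6 neurexin and neuroligin genes 2 were higher: *Nlgn2*, of inhibitory synapses, had 1396, 1448 and 1384 CPM against 530.0, 578 and 443 in the IgG RIP, a log2 fold change of 1.45 ± 0.11 (SE, FDR = 9.16e-06), and *Nlgn3* had 559.5, 837 and 660.5 CPM in the CELF2-KI RIP and 283, 303 and 317 in the IgG RIP, a log2 fold change of 1.19 ± 0.14 (SE, FDR = 6.46e-05). Among leucine-rich repeat adhesion genes *Lrfn1* had 371, 644 and 433 CPM against 87.6, 90.4 and 88.4 in the IgG RIP, a log2 fold change of 2.44 ± 0.18 (SE, FDR = 8.69e-06), but 0.82 and no call with curated transcripts alone (edgeR, FDR = 0.256), and *Lrrtm2* was a loss with 11.2, 7.86 and 6.96 CPM in the CELF2-KI RIP and 29.5, 24.7 and 23.3 in the IgG RIP, a log2 fold change of -1.57 ± 0.20 (SE, FDR = 8.74e-05).

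Matrix genes had few calls. Of 43 collagen genes 2 were higher and 3 lower (median -0.26), of 28 integrin genes 2 and 2, and of 11 laminin genes 0 and 1. *Lama4*, a vascular laminin chain gene, had 48.2, 47.1 and 61.6 CPM against 102, 142 and 152 in the IgG RIP, a log2 fold change of -1.34 ± 0.19 (SE, FDR = 0.000217). Glycosyltransferase genes, whose products build the sugar chains of membrane proteins and lipids, were higher in 26 of 102 and lower in 1 (25.5%, median 0.47). *St8sia2*, the polysialic acid synthase of young neurons, had 439, 601 and 578 CPM in the CELF2-KI RIP and 195, 184 and 212 in the IgG RIP, a log2 fold change of 1.45 ± 0.13 (SE, FDR = 1.48e-05), and *B4galnt1*, a ganglioside synthase, was the loss with 49.5, 44.4 and 48.4 CPM against 118, 107 and 95.3 in the IgG RIP, a log2 fold change of -1.17 ± 0.11 (SE, FDR = 1.91e-05). Palmitoyltransferase genes were higher in 6 of 21 and lower in 2, and genes named Tmem in 58 of 199 and 24.

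Cholesterol genes split within the pathway. Of 23 genes of synthesis and uptake 9 were higher and 5 lower (39.1% and 21.7%, median 0.91). *Srebf2*, the transcription factor of the pathway, had 1573, 2121 and 1730.0 CPM in the CELF2-KI RIP and 625, 653 and 677 in the IgG RIP, a log2 fold change of 1.47 ± 0.12 (SE, FDR = 1.15e-05). The prenyl synthase gene *Fdps* had 27.1, 20.6 and 17.5 CPM against 64.8, 73.6 and 93.9 in the IgG RIP, a log2 fold change of -1.83 ± 0.18 (SE, FDR = 2.56e-05), and the squalene synthase gene *Fdft1* had 56.9, 46.6 and 44.8 CPM in the CELF2-KI RIP and 102, 97.4 and 139.9 in the IgG RIP, a log2 fold change of -1.19 ± 0.15 (SE, FDR = 0.000118). *Mvk*, *Mvd* and *Nsdhl*, named after their values were seen, were the other losses, at -1.14, -1.51 and -1.70.

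Transcription factor genes with long known roles in the cortex were among the gains. Of 17 Sox genes 6 were higher and 0 lower (35.3%, median 0.81). *Sox11* had 1061, 1528 and 1414 CPM against 591, 537 and 568 in the IgG RIP, a log2 fold change of 1.24 ± 0.14 (SE, FDR = 4.25e-05), and *Sox4* had 636, 1197 and 948 CPM in the CELF2-KI RIP and 343, 327 and 330.0 in the IgG RIP, a log2 fold change of 1.47 ± 0.19 (SE, FDR = 0.00011); both act in newborn neurons. Of 32 forkhead genes 7 were higher and 4 lower. *Foxp4* had 47.0, 46.6 and 48.4 CPM against 96.6, 93.7 and 101 in the IgG RIP, a log2 fold change of -1.04 ± 0.13 (SE, FDR = 8.51e-05), a loss. BTB zinc finger genes were higher in 9 of 41 and lower in 1, and *Zbtb18*, a repressor needed for cortical neurons, had 934, 1304 and 1148 CPM in the CELF2-KI RIP and 450.4, 462 and 594 in the IgG RIP, a log2 fold change of 1.17 ± 0.15 (SE, FDR = 0.000107). Homeobox genes were higher in 7 of 52, 13.5% against 13.4% of all coding genes, and lower in 3. *Meis3*, a homeobox cofactor, had 7.44, 7.16 and 5.27 CPM against 36.0, 30.0 and 24.2 in the IgG RIP, a log2 fold change of -2.18 ± 0.20 (SE, FDR = 1.56e-05), a loss. Of the 364 genes named Zfp 28 were higher (7.69%) and 20 lower (5.49%), both shares under those of all coding genes, and histone lysine methylase and demethylase genes had 3 higher and 1 lower of 45.

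Genes of RNA-binding proteins were themselves divided. In the CELF family, *Celf1* had 133, 218 and 177 CPM in the CELF2-KI RIP and 118, 51.9 and 48.3 in the IgG RIP and *Celf3* had 32.5, 20.6 and 34.4 CPM against 104.6, 58.9 and 47.9 in the IgG RIP. Their log2 fold changes of 1.27 and -1.28 had opposite signs, but the FDR of *Celf1* rose to 0.0329 as single libraries were left out. The call of *Celf1* was lost without CELF2-KI RIP replicate 2 or 3 or IgG RIP replicate 2 or 3. *Celf3* went from -1.49 to -0.87 and lost its call without CELF2-KI RIP replicate 2 or IgG RIP replicate 1. With curated transcripts alone *Celf3* was at 1.22 and was not called (edgeR, FDR = 0.396). Celf4, Celf5 and Celf6 were not called, at 0.24, 0.93 and -0.54. Neuronal RNA-binding protein genes were higher in 10 of 27 and lower in 2 (37.0%, median 0.65). *Rbfox2*, a splicing regulator, had 879, 1479 and 1195 CPM in the CELF2-KI RIP and 448, 430.1 and 489.7 in the IgG RIP, a log2 fold change of 1.38 ± 0.17 (SE, FDR = 8.55e-05). Its paralog *Rbfox1* (chr16:5884793-7412480) had 195, 357 and 273 CPM against 956, 1071 and 512 in the IgG RIP with 48.6, 51.1 and 48.9 CPM in the input, a log2 fold change of -1.62 ± 0.27 (SE, FDR = 0.000619), and with curated transcripts alone *Rbfox1* was at -1.08 (edgeR, FDR = 0.0448) and not called. *Rbfox1* was thus far above its input in the IgG RIP and above it in the CELF2-KI RIP too, a pattern unlike that of the ribosomal genes.

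Splicing factor and decay genes followed mixed patterns. SR and hnRNP genes were higher in 8 of 33 and lower in 1, and *Hnrnpa1* had 727, 843 and 790.4 CPM in the CELF2-KI RIP and 342, 314 and 416 in the IgG RIP, a log2 fold change of 1.14 ± 0.12 (SE, FDR = 3.57e-05). Genes of the Sm and LSm rings were lower in 7 of 25. *Snrpd2*, an Sm core protein gene, had 8.80, 6.16 and 6.61 CPM against 31.0, 42.4 and 33.8 in the IgG RIP, a log2 fold change of -2.31 ± 0.18 (SE, FDR = 9.01e-06). The 3 that were higher lie outside the spliceosome core in part: *Lsm11* belongs to the U7 particle that processes histone mRNA and had 166, 262 and 203 CPM in the CELF2-KI RIP and 82.5, 83.7 and 77.4 in the IgG RIP, a log2 fold change of 1.38 ± 0.15 (SE, FDR = 4.48e-05), *Lsm14a* belongs to P-bodies, at 1.08 with its call lost without CELF2-KI RIP replicate 2 or IgG RIP replicate 1, and *Lsm8*, of the U6 ring, was named after its value was seen. DEAD and DEAH helicase genes were lower in 10 of 52 and higher in 2, of which *Ddx6*, the P-body helicase, had 388, 438 and 427 CPM against 145, 142 and 188 in the IgG RIP, a log2 fold change of 1.399 ± 0.15 (SE, FDR = 3.49e-05). Of 25 deadenylase and microRNA effector genes 6 were higher and 3 lower. *Ago2* had 251, 469.5 and 375 CPM in the CELF2-KI RIP and 169, 158 and 149 in the IgG RIP and *Cnot6*, a deadenylase subunit, had 174, 231 and 151 CPM against 80.7, 68.2 and 77.9 in the IgG RIP, a log2 fold change of 1.29 ± 0.16 (SE, FDR = 8.51e-05), while the scaffold gene *Cnot3* had 5.60, 7.47 and 7.86 CPM in the CELF2-KI RIP and 47.4, 47.0 and 48.7 in the IgG RIP, a log2 fold change of -2.77 ± 0.18 (SE, FDR = 5.86e-06). *Ago2* fell just under 2-fold without CELF2-KI RIP replicate 2, at 0.98.

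In signalling families, too, the named genes were picked by level among those called in each direction. A pair of opposite direction is therefore no trait of a family, and how often paralogs differ was not tested. Of 30 heterotrimeric G protein subunit genes 11 were higher and 3 lower, and the median of 0.26 turned to -0.11 with total-count scaling. *Gnb1* had 1455, 1993 and 1705 CPM against 426, 449 and 571 in the IgG RIP, a log2 fold change of 1.83 ± 0.15 (SE, FDR = 1.16e-05), whereas *Gnb2* had 61.5, 51.8 and 50.8 CPM in the CELF2-KI RIP and 197, 211 and 205 in the IgG RIP, a log2 fold change of -1.90 ± 0.11 (SE, FDR = 5.14e-06). Of the 6 genes of 14-3-3 proteins 3 were higher and 0 lower, and *Ywhag* had 2513, 3629 and 3195 CPM against 856, 911 and 1209 in the IgG RIP, a log2 fold change of 1.65 ± 0.17 (SE, FDR = 2.67e-05). MAP kinase cascade genes were higher in 9 of 41 and lower in 4. Among phosphatase subunits, 13 of 71 higher and 7 lower, *Ppp1r15b*, which directs the dephosphorylation of eIF2-alpha, had 375, 593 and 397 CPM in the CELF2-KI RIP and 119.5, 120.0 and 145 in the IgG RIP, a log2 fold change of 1.83 ± 0.17 (SE, FDR = 1.92e-05), and *Ppp1ca*, a catalytic subunit, had 54.2, 30.1 and 31.2 CPM against 82.8, 87.0 and 118 in the IgG RIP, a log2 fold change of -1.32 ± 0.23 (SE, FDR = 0.000672).

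Cytoskeletal genes were likewise named from the calls in each direction. Tubulin genes were higher in 3 of 20 and lower in 4 (median -0.19). Dynein and dynactin genes were higher in 3 of 22 and lower in 4 (median -0.236). Actin and Arp2/3 genes were higher in 4 of 25 and lower in 6 (median 0.0855). Kinesin genes were higher in 1 of 41 and lower in 2 (median -0.0395). *Tubb5*, a beta tubulin, had 3841, 4163 and 3618 CPM in the CELF2-KI RIP and 1313, 1451 and 1847 in the IgG RIP, a log2 fold change of 1.33 ± 0.14 (SE, FDR = 2.82e-05), and *Tubb3*, the neuronal beta tubulin, had 1906, 2042 and 1734 CPM against 729, 834 and 1075 in the IgG RIP, a log2 fold change of 1.11 ± 0.14 (SE, FDR = 0.000121), a gain that was just under 2-fold without IgG RIP replicate 1, at 0.99. *Tuba1a*, the main alpha tubulin of young neurons, had 2067, 1223 and 1267 CPM in the CELF2-KI RIP and 2388, 2877 and 3902 in the IgG RIP and 7659, 6926 and 7675 CPM in the input, and its log2 fold change of -1.01 ran from -1.30 to -0.79 as single libraries were left out, with the call lost without CELF2-KI RIP replicate 2, CELF2-KI RIP replicate 3 or IgG RIP replicate 3. Tubulin genes are alike in sequence, and counts of single members are uncertain. *Pfn2*, the neuronal profilin gene, had 416, 427 and 347 CPM against 106, 119 and 146 in the IgG RIP, a log2 fold change of 1.68 ± 0.14 (SE, FDR = 1.15e-05), and *Pfn1* had 23.2, 14.1 and 15.8 CPM in the CELF2-KI RIP and 49.4, 49.9 and 67.5 in the IgG RIP, a log2 fold change of -1.65 ± 0.20 (SE, FDR = 6.89e-05). The dynein light chain gene *Dynll2* had 548, 839.8 and 610.0 CPM against 141, 173 and 175 in the IgG RIP, a log2 fold change of 2.03 ± 0.17 (SE, FDR = 1.15e-05), and the dynactin gene *Dctn2* had 55.05, 46.5 and 45.4 CPM in the CELF2-KI RIP and 163, 161 and 171 in the IgG RIP, a log2 fold change of -1.75 ± 0.11 (SE, FDR = 5.5e-06). Myosin genes were lower in 8 of 38 and higher in 0 (median -0.81). *Myh10*, nonmuscle myosin IIB, had 355, 356 and 461 CPM against 979, 839 and 934 in the IgG RIP and 345, 341 and 382 CPM in the input, a log2 fold change of -1.23 ± 0.13 (SE, FDR = 3.1e-05), so its CELF2-KI RIP level was near the input and its IgG RIP level above it.

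Markers of the cell types that the labels list were checked, since RNA of different cells could enter either pull-down. All 10 excitatory neuron markers were detected and summed to 1887 to 2442 CPM in the CELF2-KI RIP, 1049 to 1141 in the IgG RIP and 1090 to 1283 in the input; 4 were higher, 0 lower. Inhibitory neuron markers were higher in 3 of 10, of which *Lhx6*, a factor of medial ganglionic eminence interneurons, had 65.9, 129 and 110.3 CPM in the CELF2-KI RIP and 19.1, 12.7 and 32.0 in the IgG RIP, a log2 fold change of 2.25 ± 0.33 (SE, FDR = 0.000249), and lower in 1, *Sst*, a neuropeptide gene, with 9.68, 7.93 and 7.14 CPM against 29.5, 38.1 and 41.2 in the IgG RIP, a log2 fold change of -2.13 ± 0.17 (SE, FDR = 9.98e-06). Radial glia and progenitor markers were lower in 5 of 10 and higher in 0 (median -0.95, 2 of 10 above 0), with sums of 267 to 365 CPM in the CELF2-KI RIP and 572 to 649 in the IgG RIP. *Nes*, the nestin gene, had 43.8, 37.7 and 67.0 CPM in the CELF2-KI RIP and 132, 119 and 91.5 in the IgG RIP, a log2 fold change of -1.21 ± 0.21 (SE, FDR = 0.000773), and *Fabp7* had 88.8, 42.6 and 51.4 CPM against 152, 130 and 199.7 in the IgG RIP, a log2 fold change of -1.399 ± 0.26 (SE, FDR = 0.00102). Other progenitor markers, *Sox2*, *Pax6*, *Eomes*, *Hes5* and *Top2a*, were not called.

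Of 8 astrocyte markers 2 were higher and 1 lower, the latter 12.5% beside 13.5% of all coding genes. Of 8 oligodendrocyte lineage markers 1 was higher, 12.5% beside 13.4% of all coding genes, and 0 were lower. The oligodendrocyte list had a median of -0.33, with 3 of 8 above 0, so its 1 gain, *Mbp*, went against the list. *Aqp4*, an astrocyte water channel, had 110.4, 115 and 80.1 CPM in the CELF2-KI RIP and 36.9, 38.5 and 19.6 in the IgG RIP, a log2 fold change of 1.69 ± 0.27 (SE, FDR = 0.000481), and *Aldoc*, an astrocyte aldolase, had 33.0, 15.6 and 18.3 CPM against 55.8, 51.4 and 68.7 in the IgG RIP, a log2 fold change of -1.39 ± 0.26 (SE, FDR = 0.00122). *Mbp*, of myelin, had 62.3, 91.8 and 68.7 CPM in the CELF2-KI RIP and 23.9, 30.3 and 23.4 in the IgG RIP, a log2 fold change of 1.52 ± 0.17 (SE, FDR = 4.74e-05). Of 9 microglia markers tested 4 were lower and 1 higher, with a median of -1.57 and 2 of 9 above 0. *Cx3cr1*, the fractalkine receptor, had 89.5, 108 and 77.8 CPM against 29.8, 40.5 and 32.9 in the IgG RIP, a log2 fold change of 1.42 ± 0.17 (SE, FDR = 8.16e-05), and *C1qb*, of complement, had 2.64, 2.46 and 2.14 CPM in the CELF2-KI RIP and 9.01, 12.2 and 13.3 in the IgG RIP, a log2 fold change of -2.25 ± 0.21 (SE, FDR = 1.72e-05), both being microglial in the brain. *P2ry12* did not pass the count filter, and *Csf1r* was at 0 in 3 of the 6 libraries. The 10 vessel markers were lower in 2 and higher in 0. Erythroid markers, genes of red blood cells, were lower in 5 of 6 and summed to 93.9 to 96.5 CPM in the CELF2-KI RIP, 370 to 586 in the IgG RIP and 879 to 1136 in the input. *Hbb-bs*, an adult beta globin gene (chr7:103826523-103827928), had 21.1, 21.9 and 20 CPM against 102, 160.0 and 246 in the IgG RIP, a log2 fold change of -3.01 ± 0.28 (SE, FDR = 1.89e-05), and *Hba-a1*, which is nearly identical to a neighbouring copy, had 26.2, 31.2 and 32.4 CPM in the CELF2-KI RIP and 132, 137 and 146 in the IgG RIP, a log2 fold change of -2.21 ± 0.15 (SE, FDR = 6.22e-06). The part of cell type in the gene lists above was not tested, and in bulk RNA fewer cells of a type and less RNA per cell cannot be told apart.

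The share of losses went down with the genomic span of genes. The genomic span of a gene sets an upper limit on the length of its spliced transcript, which the files do not give. Of 110 genes under 1 kb, 63 were lower (57.3%) and 4 higher, with a median of -1.60. Of 279 genes between 1 and 2 kb 33.7% were lower and 6.81% higher, of 2609 genes between 8 and 16 kb 17.8% and 12.2%, and of 3633 genes over 64 kb 5.86% and 13.7%, with a median of 0.17. Without the histone, ribosomal protein and oxidative phosphorylation genes the order was kept from 1 kb up, from 29.5% lower at 1 to 2 kb to 5.81% over 64 kb, and 12 of the 51 remaining genes under 1 kb were lower (23.5%). The limits of span were set after the data were seen. The share of gains varied less with span, between 11.2% and 14.8% in all groups from 2 kb up.

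**Figure D4:**
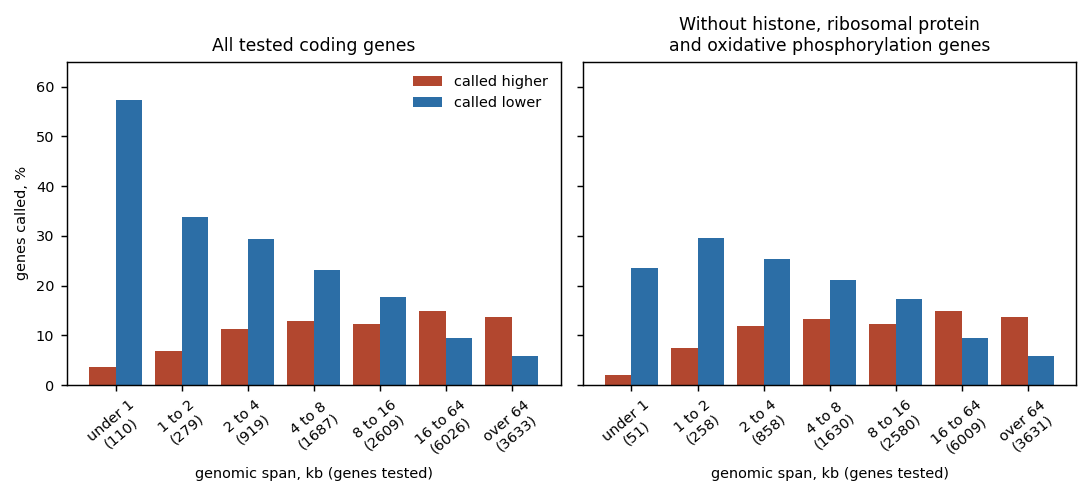
Percent of tested coding genes called higher (red) and lower (blue) in the CELF2-KI RIP by genomic span in kb, with the number of genes in brackets, for all genes (left) and without histone, ribosomal protein and oxidative phosphorylation genes (right). The share called lower goes from 57.3% under 1 kb to 5.86% over 64 kb on the left, and peaks at 29.5% between 1 and 2 kb on the right.

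Level moved with the difference. In 5 equal groups by mean CPM over the 6 pull-down libraries, the median log2 fold change went from -0.52 in the lowest to 0.58 in the highest, and the share called higher from 1.64% to 30.6%. The mean includes the CELF2-KI RIP and so is not independent of the difference, and low counts limit calls in the lowest group. The share called lower went down with the number of RefSeq transcripts of a gene, from 18.1% in the group with a single transcript to 9.63% in the group with 6 to 51, and the share called higher was 14.4% and 9.76% in these groups.

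Noncoding genes were lost far more than gained. On the scale of the coding genes 3518 noncoding genes were tested, 47 were higher (1.34%) and 296 lower (8.41%), with a median of -0.44. The count of losses depended on single libraries: it was 156 without CELF2-KI RIP replicate 1, 134 without CELF2-KI RIP replicate 3, 189 and 180 without IgG RIP replicate 1 or 2 and 527 without IgG RIP replicate 3. Long noncoding RNAs made up 3297 of them, 42 higher and 264 lower, and among the 254 with a given name rather than a predicted model symbol 12 were higher and 24 lower.

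Structured small RNAs that work in ribonucleoprotein particles had large losses. *Rn7sk*, the 7SK RNA that holds the P-TEFb kinase inactive (chr9:78175302-78175633), had 693, 459.8 and 343 CPM against 5307, 4431 and 8495 in the IgG RIP, a log2 fold change of -3.61 ± 0.34 (SE, FDR = 2.25e-05). *Rn7s1* and *Rn7s2*, copies of the 7SL RNA of the signal recognition particle, had identical counts: each had 442, 179.5 and 332 CPM in the CELF2-KI RIP and 4220.0, 3093 and 4892 in the IgG RIP, a log2 fold change of -3.68 ± 0.39 (SE, FDR = 3.77e-05). *Rpph1*, the RNA of RNase P, had 71.9, 31.7 and 36.4 CPM against 664, 525 and 703 in the IgG RIP, a log2 fold change of -3.76 ± 0.34 (SE, FDR = 1.81e-05). In all of these the input was higher still, with 16630.0, 16910.0 and 25850.0 CPM, 32240.0, 61280.0 and 32530.0 CPM and 3435, 6235 and 4575 CPM. All 6 tested RNAs of this list were lower.

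Small nucleolar and Cajal body RNAs, which guide the modification of ribosomal and spliceosomal RNAs, were lower in 5 of 5 but had another pattern, since their summed level was 491, 241 and 220 CPM in the IgG RIP, above the 37.6 to 64.4 of the input and the 38.0 to 70.9 of the CELF2-KI RIP. *Scarna13* had 28.8, 19.6 and 20 CPM in the CELF2-KI RIP and 195, 93.5 and 108 in the IgG RIP and 24.1, 37.5 and 30.4 CPM in the input, a log2 fold change of -2.54 ± 0.30 (SE, FDR = 7.46e-05). *Snora73b* had 7.52, 4.54 and 1.43 CPM against 93.8, 52.1 and 29.1 in the IgG RIP and 1.32, 2.08 and 1.26 CPM in the input, a log2 fold change of -3.69 ± 0.56 (SE, FDR = 0.000358). *Snord17* had 3.36, 1.001 and 0.625 CPM in the CELF2-KI RIP and 47.7, 15.8 and 4.80 in the IgG RIP, and its log2 fold change of -3.77 ran from -4.79 to -2.61 as single libraries were left out, with an FDR of up to 0.0216 and the call lost without CELF2-KI RIP replicate 2 or 3 or IgG RIP replicate 1. *Rnu3b1* and *Rnu3b2*, copies of the U3 RNA with identical counts, were at 0 in all 3 CELF2-KI RIP libraries and had 9.83, 9.32 and 3.01 CPM in the IgG RIP, at least 30.0-fold lower against a floor of 3 counts per library. Host genes of small nucleolar RNAs, of the Snhg family, were lower in 7 of 17 and higher in 0 (median -1.28), and *Snhg16* had 10.5, 7.62 and 7.32 CPM against 24.1, 18.8 and 18.9 in the IgG RIP, a log2 fold change of -1.28 ± 0.19 (SE, FDR = 0.000343). *Gm42092*, a predicted gene, showed the largest loss among noncoding genes of at least 10 CPM with 0.800, 0.847 and 0.268 CPM in the CELF2-KI RIP and 32.5, 23 and 5.38 in the IgG RIP and 0.143, 0.286 and 0.162 CPM in the input, a log2 fold change of -4.96 ± 0.69 (SE, FDR = 0.000203).

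Gains among noncoding genes were few. Long noncoding RNAs were 42 of the 47 gains, but also 3297 of the 3518 genes tested and 264 of the 296 losses. As a class they were higher in 1.27% and lower in 8.01%. *Norad*, a cytoplasmic RNA that binds Pumilio proteins (chr2:156388063-156392979), had 1604, 2825 and 1889 CPM against 501, 509 and 554 in the IgG RIP and 465, 496 and 458 CPM in the input, a log2 fold change of 2.01 ± 0.19 (SE, FDR = 2.12e-05). *H19*, an imprinted RNA, had 154, 176 and 225 CPM in the CELF2-KI RIP and 56.7, 48.6 and 61.6 in the IgG RIP, a log2 fold change of 1.73 ± 0.24 (SE, FDR = 0.000203). *Peg13*, another imprinted RNA, had 725, 768 and 740.0 CPM against 279.5, 289 and 329.8 in the IgG RIP, a log2 fold change of 1.31 ± 0.10 (SE, FDR = 1.18e-05). *Kantr*, a brain-enriched transcript, had 32.4, 44.8 and 32.6 CPM in the CELF2-KI RIP and 9.14, 10.6 and 14.9 in the IgG RIP, a log2 fold change of 1.66 ± 0.21 (SE, FDR = 0.000117). The 3 other named gains were *2810013P06Rik*, *Cep83os* and *1500011B03Rik*, with log2 fold changes of 2.19, 1.87 and 1.72. *Norad* kept its call in all 10 alternatives run on it. Of 10 nuclear-retained long RNAs 1 was higher, *Peg13*, and 2 were lower. *Xist*, the RNA of X inactivation, had 0.320, 0.770 and 0.803 CPM against 5.07, 3.07 and 3.37 in the IgG RIP with 0.302, 0.276 and 0.453 CPM in the input, a log2 fold change of -2.61 ± 0.45 (SE, FDR = 0.000805), and kept its call in all 10 alternatives run on it. *Mirg* had 3.20, 4.54 and 3.30 CPM in the CELF2-KI RIP and 12.8, 12.8 and 5.95 in the IgG RIP and lost its call without CELF2-KI RIP replicate 1 or 3 or IgG RIP replicate 1 or 2, with an FDR of up to 0.0139. No microRNA precursor gene passed the count filter, and of 6 microRNA host genes 1 was lower, *Mir99ahg*, with 9.36, 12.5 and 7.23 CPM against 52.3, 46.8 and 27.0 in the IgG RIP, a log2 fold change of -2.11 ± 0.27 (SE, FDR = 0.000128).

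**Figure D5:**
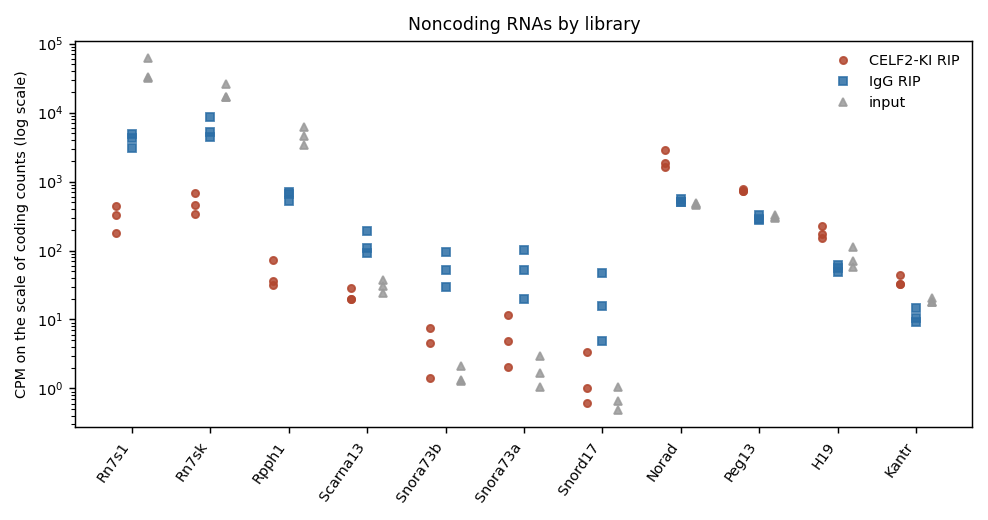
CPM on the scale of coding counts, on a log axis, of 11 called noncoding RNAs in each library, 3 points for each pull-down and the input. Long noncoding RNAs as a class were higher in 1.27% and lower in 8.01%. The 7 structured RNAs on the left are lower in every CELF2-KI RIP library than in every IgG RIP library, and the 4 long RNAs on the right are higher; the input lies above the IgG RIP for Rn7s1, Rn7sk and Rpph1 and below it for the small nucleolar RNAs.

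Single transcripts were tested on the same scale. Of 43020 RefSeq transcripts 1858 were higher (4.32%) and 1001 lower (2.33%). In the fit of the 6 pull-down libraries alone edgeR called 0 transcripts, with a smallest FDR of 0.0186, and an unadjusted p under 0.05 was reached by 4644 upward and 3916 downward. Without CELF2-KI RIP replicate 2 the counts were 1079 and 555, without CELF2-KI RIP replicate 3 they were 1041 and 527, and without IgG RIP replicate 2 the losses were 654. Curated mRNAs of coding genes had 1437 gains (7.37%) and 742 losses (3.8%) of 19510. Predicted mRNAs had 368 gains (2.14%) and 178 losses (1.04%) of 17195. Curated mRNAs were thus called more often in both directions. Noncoding transcripts of noncoding genes had 18 gains and 17 losses of 1292 curated and 3 and 28 of 2598 predicted ones. The choice of transcripts also bears on gene sums. With curated transcripts alone *Srebf2*, *Zbtb18*, *Cacng8*, *Tubb3*, *Hnrnpa1*, *Rab6b*, *Lsm14a* and *Atp5g3* were under 2-fold, and *Cx3cr1*, *Lhx6*, *Chuk*, *B4galt1*, *Kdm6b*, *Grin2b*, *Rbfox2*, *Cacnb3*, *Gabrd* and *Pitrm1* had an edgeR FDR between 0.0119 and 0.0566, so that these calls were lost.

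Opposite calls within a gene were rare. Of 9183 genes with at least 2 tested transcripts, 35 had a transcript called in each direction, and 21 of these had means of at least 5 CPM on both. In *Mapt*, the tau gene, transcript NM_010838.4 had 106, 116 and 92.7 CPM in the CELF2-KI RIP and 20.7, 14.2 and 17.3 in the IgG RIP and a log2 fold change of 2.59 ± 0.19 (SE, FDR = 0.000509), and NM_001038609.2 was at 0 in the CELF2-KI RIP with 30.6, 21.1 and 24.0 CPM in the IgG RIP, at least 102-fold lower. In *Nrcam*, a neuronal adhesion gene, XM_006515963.2 was at 0 in the IgG RIP with 68.7, 77.0 and 56.5 CPM in the CELF2-KI RIP, and NM_001146031.1 had 24.0, 19.8 and 29.9 CPM against 84.7, 108 and 162 in the IgG RIP, a log2 fold change of -2.27 ± 0.26 (SE, FDR = 0.0015). In *Kalrn*, a synaptic guanine nucleotide exchange factor gene, NM_177357.3 was at 0 in the IgG RIP with 94.0, 65.5 and 128 CPM in the CELF2-KI RIP, and XM_006522382.3 had 9.28, 8.63 and 16.3 CPM in the CELF2-KI RIP and 181, 273 and 102 in the IgG RIP, a log2 fold change of -4.02 ± 0.44 (SE, FDR = 0.00118). *Nrcam* and *Kalrn* as whole genes were not called, and *Mapt* as a whole gene was higher, with a log2 fold change of 1.69 (edgeR, FDR = 3.65e-05). The lowered transcript of *Mapt* and the raised transcript of *Nrcam* were also at 0 in all 3 input libraries. The raised transcript of *Kalrn* had 25.75, 31.53 and 51.36 CPM in the input. In *Chd6*, *Slk* and *Rnf169*, the other 3 of the 6 widest gaps, at least 1 transcript was likewise at 0 in a whole pull-down. Counts of isoforms that share most of their sequence are estimates, and how reads were divided between them was not tested.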

How the data were processed

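Total RNA of 3 samples each of both pull-downs and the input was depleted of ribosomal RNA and sequenced as directional libraries. The authors trimmed the reads with fastp, removed residual ribosomal reads with Ribodetector and deposited estimated counts per transcript from kallisto 0.51.1, with mm10 named in their processing notes. The methods name Ensembl as the source of transcripts, whereas the 107384 rows of the table carry RefSeq accessions. Whether strand was used in pseudoalignment is not given in the sources used here. Antisense and overlapping genes, and near-identical copies, are therefore uncertain.

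Accessions were matched without their version to a RefSeq gene table (GRCm38.p6), which placed 86714 rows on 32899 genes and left 20670 rows out of gene sums. Counts were summed per gene and rounded. A minimum of 0.5 CPM in 3 or more of the 9 libraries was required, and the test was that of edgeR 4.0.16 (R 4.3.3, limma 3.58.1, quasi-likelihood, TMM factors from coding genes), in 1 model of all 9 libraries with a common estimate of the spread (biological coefficient of variation 0.221). Calls needed an FDR (Benjamini-Hochberg, over all genes tested) below 0.01 and a 2-fold change or more. Noncoding genes and transcripts were tested on the coding scale. Zeros in a whole group were set at a floor of 3 counts per library, and floors cover counting error only. Pairs of replicates differed by far more than sampling noise, and total counts ran from 15919600 to 28773130 in the pull-downs. The test was checked on simulated data, in which it called 45 of 50 genes that had been raised 2.83-fold, among 15109 genes. The simulation gave all genes the same spread and changed few genes, as many up as down, so it does not bear on the scaling.

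Named genes were *Celf2*, the 12 largest gains and losses of at least 10 CPM with separated libraries (leaving out predicted symbols), the 6 largest noncoding ones, up to 2 called members per direction of 85 lists by level, and the 6 genes with the widest gap between transcripts. Other genes were named after their values were seen. Some genes that the rule names are not reported here. The lists, the rule and the comparison were chosen with earlier results of these data known. Alternatives changed scaling, filter, test (DESeq2 1.42.0), libraries, the replicate block and the transcripts summed. Scripts ran in Python 3.11.15 with pandas 2.3.3.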

Additional observations from a re-analysis of the deposited data

How the results depend on the processing

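The counts moved with the scaling, the call rule and the libraries used. Of coding genes, 1349 were higher with TMM over all classes, 937 with total-count scaling, 1212 with upper-quartile scaling and 546 with glmTreat against 2-fold, and 3421 were lower with total-count scaling and 622 with glmTreat. Over all classes 1377 were higher with TMM over all classes, and 953 were higher and 4045 lower with total-count scaling. Noncoding gains were 31 with TMM over all classes, 30 in the pull-down libraries alone and 20 with total-count scaling, and noncoding losses 494, 194 and 633, and 134 to 527 as single libraries were left out. Transcripts numbered 0 higher and 0 lower in the pull-down libraries alone, 1015 and 1642 with total-count scaling, and 1041 to 2156 and 527 to 1223 as single libraries were left out. Whether same-numbered libraries of the pull-downs came from the same lysate was not established. Their deviations correlated at -0.133, 0.0702 and -0.0578 over 11532 genes, which cannot settle the pairing. With the replicate block, 2026 coding genes were higher and 1936 lower, and 677 and 305 transcripts. Summing curated transcripts alone turned the sign of *Grm8* (8.94), *Zdhhc21* (-2.17), *Mgat5* (-0.78), *Col11a2* (0.44), *Zbtb48* (7.41), *H3f3b* (-0.0099), *Celf3* (1.22) and *Rnf169* (13.23) on the log2 scale, and the cause was not tested. Of these only *Rnf169* was called in the opposite direction (edgeR, FDR = 5.51e-05). The others had an edgeR FDR from 0.0175 to 0.986 and were not called. Of 291 named genes 221 kept their call without any 1 library, 70 lost it without at least 1, and 0 changed direction. Under all alternatives except glmTreat 149 kept their call. It was lost by 83 with total-count scaling, 60 with upper-quartile scaling, 49 with TMM over all classes and 183 with glmTreat, where these were run. With curated transcripts alone 69 lost their call with the same sign, the 8 above turned sign, and 190 kept their call. An alternative by protein length was not run. Low counts limit calls in genes of a few CPM, and the 9344325 coding counts of IgG RIP replicate 2 set the lowest precision.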
